A study of Mus musculus with 5 samples.

Results

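The 52 genes described here encode enzymes, regulators and carriers of cholesterol and fatty acid metabolism. They were taken as a list of names, and a gene's value was the mean of the probe sets that the platform annotation gives to its symbol alone. Of the 52, 50 had a value, among 18193 genes in all. Soat1, which esterifies cholesterol, and Acsl1, an acyl-CoA synthetase, had no such probe set and were not analysed here.

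Expression was measured on 5 Affymetrix arrays of cells sorted from female C57BL/6 mice aged 6 to 8 weeks. The 2 brain dendritic cell (DC) arrays held Lin-CD45hiCD11c+ cells from the brain, that is, cells without lineage markers and with CD45 at a high level and CD11c on their surface. Those mice had received 1000000 B16-Flt3L tumour cells subcutaneously 12 days earlier; these are melanoma cells that secrete Flt3 ligand, the cytokine that expands dendritic cells. The 3 monocyte arrays held SSCloCD11bhi CD115+ cells from bone marrow, and the labels name no treatment for them. Cell type, tissue and tumour treatment separate the groups in the same way and cannot be told apart. Nothing in the labels assigns the arrays of a group to different animals, so a p-value reflects array-to-array spread that may be technical only. In sorted bulk samples, fewer cells of a type and less RNA per cell also cannot be told apart. Precision is limited by having 5 arrays. A two-sided exact permutation test of 2 against 3 cannot go below p = 0.1, so calls rest on limma's model across all genes, with an adjusted p of at most 0.05. Each value is a log2 value set against a baseline that every probe set has for itself. Such values show differences between arrays and carry no absolute level, so genes cannot be ranked by abundance.

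Cells make cholesterol from acetyl-CoA through mevalonate, farnesyl pyrophosphate, squalene and lanosterol. When membrane sterol is low, Scap escorts the SREBP factors to the Golgi for cleavage, and they switch on the genes of this pathway. When sterol is plentiful, the Insig proteins hold Scap in the endoplasmic reticulum. Fatty acids are built from the same acetyl-CoA, then lengthened and desaturated, or else joined to CoA and carried into mitochondria on carnitine to be burned. Fatty acids in excess are bound by carrier proteins and stored as triglyceride in lipid droplets, which dendritic cells and macrophages can accumulate.

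The labelled cell types were set against marker lists. All 10 conventional dendritic cell markers were higher in brain DC than in monocytes (median difference 3.92), and all 7 measured of 10 classical monocyte markers were lower (median difference -2.49). Of 9 measured microglia markers 8 were higher, and the mean of that list was 1.21 to 1.37 over the brain DC arrays, against -0.75 to -0.54 over the monocyte arrays. Brain endothelial markers were higher for 5 of 7 (list mean 0.41 to 0.44 in brain DC, -0.51 to -0.50 in monocytes). Choroid plexus markers were higher for 3 of 7 (1.06 to 1.21 in brain DC, -0.39 to -0.23 in monocytes). Of these, Ttr, the transthyretin of the choroid plexus, differed by 7.22, Clic6 by 0.67 and Sostdc1 by 0.57. Kl, Folr1, Kcnj13 and Aqp1 were not called. Macrophage lipid markers were higher for 4 of 8 (2.36 to 2.46 in brain DC, 0.27 to 0.38 in monocytes). These 4 were C1qa, C1qb and C1qc, which differed by 4.46, 6.23 and 4.62, and Mertk, by 1.43. Trem2 (0.07), Gpnmb (-0.03), Lgals3 (-0.30) and Mrc1 (0.05) were not called. Astrocyte markers were higher for 2 of 8 (0.44 to 0.50 in brain DC, -0.15 to -0.11 in monocytes). Oligodendrocyte markers were higher for 2 of 7 (0.17 to 0.21 in brain DC, -0.40 to -0.18 in monocytes). Neutrophil and granule markers were lower for 6 and higher for 1 of 11 (1.09 to 1.28 in brain DC, 2.16 to 3.57 in monocytes), and proliferation markers lower for 5 and higher for 1 of 9 (-0.49 to -0.17 in brain DC, 0.26 to 1.02 in monocytes). RNA control probe sets separated the groups too. The 5′ minus 3′ value of the Actb controls was 0.16 and 0.31 in the brain DC arrays, against -3.99, -3.98 and -1.60 in the monocyte arrays. That of the Gapdh controls was 0.34 and 0.22 in the brain DC arrays, against -2.78, -2.86 and -2.28 in the monocyte arrays. All 24 poly-A spike-in probe sets were higher in both brain DC arrays than in every monocyte array, by a median of 2.59, as were all 18 hybridisation control probe sets, by a median of 1.04. The part of these markers and controls in the differences below was not tested.

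Of the 50 genes, 16 were higher in brain DC than in monocytes, 11 were lower, and 23 did not pass the test. Over all 18193 genes 16.9% were called higher and 16.9% lower, against 32.0% and 22.0% of these genes. The groups did not overlap for 33 of the 50 genes (66.0%), against 60.2% of all genes. The median difference was 0.19 for the 50 genes, with a range of -2.94 to 3.22, beside a median of 0.09 for all genes. Without regard to sign, the median size was 0.54 for the 50 genes and 0.31 for all genes. Calls lay in both directions in 6 of the 7 role groups, and cholesterol efflux held no call. Without the second brain DC array the number of genes called higher was 10 in place of 16.

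**Figure D1:**
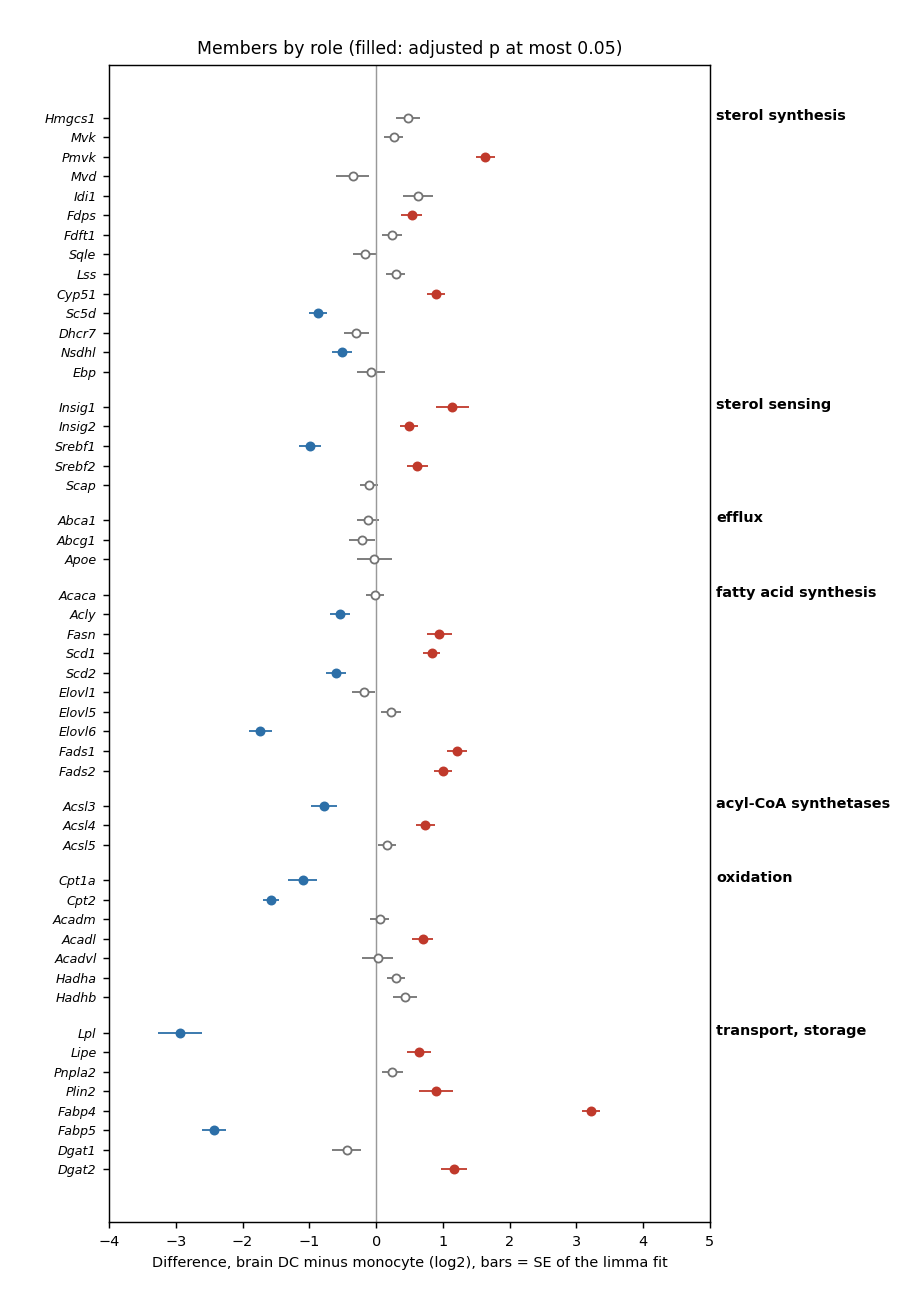
Differences, brain DC minus monocyte, of the 50 genes on the log2 scale, grouped by role, with bars for the standard error. Red marks the 16 genes called higher, blue the 11 called lower and open grey those not called; the largest differences are those of Fabp4 (3.22) and Lpl (-2.94), both in lipid handling.

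The promoters of 4 genes are given to show what lies upstream of sterol pathway genes and of an oxidation gene whose partner starts next to it. They are RefSeq sequences of build GRCm38.p6, from 250 bases before to 50 bases after the gene start, on the gene's own strand. Capitals mark matches, on either strand, to the core of the sterol regulatory element TCACNCCAC, to which SREBP binds, the NF-Y box CCAAT, the GC box GGGCGG bound by Sp1, and the E-box CACGTG. No marked matches overlap.
Hmgcs1, chr13:119690101-119690400, plus strand: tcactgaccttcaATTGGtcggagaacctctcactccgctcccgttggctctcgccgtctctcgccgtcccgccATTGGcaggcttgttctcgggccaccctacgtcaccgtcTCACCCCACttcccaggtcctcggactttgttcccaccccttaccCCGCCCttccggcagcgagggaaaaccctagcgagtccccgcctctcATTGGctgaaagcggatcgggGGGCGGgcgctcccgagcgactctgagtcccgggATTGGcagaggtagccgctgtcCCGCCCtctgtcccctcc
Insig1, chr5:28071162-28071461, plus strand: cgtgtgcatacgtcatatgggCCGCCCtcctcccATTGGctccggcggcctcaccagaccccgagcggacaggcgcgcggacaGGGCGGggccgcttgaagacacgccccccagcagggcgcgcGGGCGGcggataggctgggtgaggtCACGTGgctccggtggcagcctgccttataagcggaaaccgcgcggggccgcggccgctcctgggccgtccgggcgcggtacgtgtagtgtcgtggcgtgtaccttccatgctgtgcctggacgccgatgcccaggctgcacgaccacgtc
Cyp51, chr5:4104648-4104947, minus strand: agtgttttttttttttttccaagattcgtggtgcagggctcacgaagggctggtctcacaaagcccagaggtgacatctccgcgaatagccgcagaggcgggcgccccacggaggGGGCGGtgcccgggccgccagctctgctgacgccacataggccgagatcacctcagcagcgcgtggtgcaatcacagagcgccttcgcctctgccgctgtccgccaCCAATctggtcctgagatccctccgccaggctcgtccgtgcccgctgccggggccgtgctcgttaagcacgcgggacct
Hadhb, chr5:30155003-30155302, plus strand: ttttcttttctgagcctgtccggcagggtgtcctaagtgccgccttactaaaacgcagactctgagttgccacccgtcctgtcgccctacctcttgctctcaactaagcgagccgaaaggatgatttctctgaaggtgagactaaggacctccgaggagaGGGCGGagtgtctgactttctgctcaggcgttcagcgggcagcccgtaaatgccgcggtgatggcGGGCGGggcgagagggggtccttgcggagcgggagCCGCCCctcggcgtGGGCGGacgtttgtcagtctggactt
In the Hmgcs1 window the sterol element lies at -137 to -129, counted from the start, amid 4 NF-Y boxes and 3 GC boxes. The Insig1 window has an NF-Y box, 3 GC boxes and an E-box. The Cyp51 window has an NF-Y box at -29 to -25 and a GC box at -135 to -130. The Hadhb window has 4 GC boxes and none of the other letters, and it overlaps the window of Hadha, on the opposite strand, by 228 bases. The RefSeq table held promoters for 38 of the 50 measured genes, 50 promoters in all. The sterol element core was in 1 of these 50 (2.0%), that of Hmgcs1, and in 1.24% of the 32851 promoters of the table. NF-Y boxes were in 24 of the 50 (48.0%) and in 37.4% of all promoters, GC boxes in 34 (68.0%) and 35.7%, and E-boxes in 9 (18.0%) and 7.15%. These are letter matches in a short window and no evidence on which factors bind there.

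Enzymes of sterol synthesis were called about as often as genes in general. Of 14 measured, 3 were higher in brain DC (Pmvk, Cyp51 and Fdps), 2 were lower (Sc5d and Nsdhl) and 9 did not pass the test. That is 35.7% called in either direction, against 33.8% of all genes. Their median difference was 0.25, and the groups did not overlap for 9 of them (64.3%, against 60.2% of all genes). Pmvk, the kinase that phosphorylates phosphomevalonate, had values of 1.57 and 1.77 in the brain DC arrays, against 0.00, 0.18 and -0.08 in the monocyte arrays. The brain DC arrays lay well clear of the monocyte arrays, and the difference was 1.63 ± 0.14 (SE), or 3.10-fold (adjusted p = 0.000163). Cyp51, the demethylase that acts on lanosterol, had values of 1.45 and 1.29 in the brain DC arrays, against 0.49, 0.57 and 0.35 in the monocyte arrays. Here too the groups were apart, with a difference of 0.90 ± 0.13 (1.86-fold, adjusted p = 0.00191).

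Pmvk had 1 probe set and Cyp51 had 3. Fdps, which makes farnesyl pyrophosphate, was higher by 0.53 (adjusted p = 0.036), with its 2 probe sets at 1.09 and -0.03. Its call was lost under 6 alternative fits. These were quantile normalisation, array median centring, and the fits without either brain DC array or without the first or the third monocyte array, with adjusted p up to 0.152 without the second brain DC array. Sc5d, the desaturase near the end of the pathway, differed by -0.87 (adjusted p = 0.00234), and its 3 probe sets ran from -2.39 to 0.06. Nsdhl, which removes methyl groups from the sterol ring, differed by -0.51 (adjusted p = 0.0387), and was not called without the first brain DC array (adjusted p = 0.189), the second monocyte array (0.0908) or the third (0.112). With replicate number as a block in the limma fit, Nsdhl differed by -0.44 and was also not called (adjusted p = 0.0817). Hmgcs1, which makes the precursor of mevalonate and carries the sterol element printed above, differed by 0.47 without passing the test (adjusted p = 0.0809). Its values were 0.46 and 0.51 in the brain DC arrays, against -0.28, 0.30 and 0.02 in the monocyte arrays, so the groups did not overlap. Idi1, the isomerase of isopentenyl pyrophosphate, differed by 0.63 (adjusted p = 0.0641), and its size depended on single arrays. It was 0.97 without the second brain DC array (adjusted p = 0.0128) and 0.28 without the first (adjusted p = 0.332), and under quantile normalisation it was 0.73 (adjusted p = 0.0303). Hmgcs1 passed without the second monocyte array (adjusted p = 0.0333), and Mvd, which makes isopentenyl pyrophosphate, without the second brain DC array (adjusted p = 0.0469). The mevalonate kinase Mvk (0.26), the squalene synthase Fdft1 (0.24) and the cyclase Lss (0.29) were not called, nor were Mvd (-0.35), Sqle (-0.16), Dhcr7 (-0.29) and Ebp (-0.08). Sqle, squalene epoxidase, had overlapping groups, with 0.49 and 0.96 in the brain DC arrays and 0.68, 1.00 and 0.99 in the monocyte arrays. Of 7 further genes of the pathway, 4 had a value and limma called 0 of them, with its standard and with its robust variance model. The 1 unadjusted p at or under 0.05 was that of Ggps1, a geranylgeranyl pyrophosphate synthase, at a difference of 0.43. Its 4 probe sets lay on both sides of 0, at 1.17, 1.38, -0.49 and -0.36.

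In the sensing machinery 4 of 5 genes were called, in both directions, or 80.0% against 33.8% of all genes. The 3 higher in brain DC were Insig1, Insig2 and Srebf2, while Srebf1 was lower and Scap was not called. Insig1, the retention protein that is itself an SREBP target, had values of 0.95 and 1.26 in the brain DC arrays, against -0.18, 0.45 and -0.40 in the monocyte arrays. The second monocyte array came nearest to the brain DC arrays, and the difference was 1.14 ± 0.25 (2.21-fold, adjusted p = 0.0108). Without the second brain DC array it was 0.99 with adjusted p = 0.0636. Srebf1, the SREBP gene best known for driving fatty acid synthesis, had values of -0.98 and -0.59 in the brain DC arrays, against 0.17, 0.05 and 0.40 in the monocyte arrays. Every brain DC value lay below every monocyte value, by -0.99 ± 0.17 on average (1.99-fold, adjusted p = 0.00367). Srebf2, its counterpart for cholesterol synthesis, ran the other way, with 0.04 and 0.14 in the brain DC arrays, against -0.59, -0.31 and -0.69 in the monocyte arrays. The difference of Srebf2 was 0.62 (adjusted p = 0.0171), and that of Insig2, the second retention protein, was 0.49 (adjusted p = 0.0251). With replicate number as a block in the limma fit, Insig2 differed by 0.42 and was not called (adjusted p = 0.0898). The Srebf2 call failed without the second brain DC array or the first or the third monocyte array (adjusted p up to 0.0721), and the Insig2 call without either brain DC array or the first or the third monocyte array (up to 0.0899). Scap had 2 probe sets on opposite sides of 0, at 0.50 and -0.72, and averaged -0.11.

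Cholesterol efflux showed no difference that could be told from the spread. The groups overlapped for all 3 measured genes, 0 were called by limma with either variance model, and 0 had an unadjusted p at or under 0.05. Abca1, the transporter that loads cholesterol onto apolipoprotein A-I, had values of -0.42 and -0.34 in the brain DC arrays, against -0.09, -0.54 and -0.15 in the monocyte arrays, a difference of -0.12 ± 0.16 (adjusted p = 0.616). Abcg1, which passes cholesterol to lipoprotein particles, had values of -0.30 and -0.42 in the brain DC arrays, against 0.10, -0.52 and -0.03 in the monocyte arrays, a difference of -0.21 ± 0.20 (adjusted p = 0.446). In both genes the second monocyte array was the lowest of all 5. Apoe, the apolipoprotein secreted by macrophages and astrocytes, had 1.05 and 1.16 in the brain DC arrays, inside the spread of 1.56, 0.62 and 1.21 in the monocyte arrays.

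Of 19 genes of cholesterol uptake, intracellular transport and regulation outside the 52, 16 had a value. Of these, 8 were lower in brain DC, 1 was higher and 7 did not pass. That is 56.2% called in either direction, against 33.8% of all genes, where 16.9% were called lower and 16.9% higher. The median difference was -0.57, beside 0.09 for all genes. Lrp1, a large endocytic receptor of lipoproteins, had values of -0.11 and 0.50 in the brain DC arrays, against 3.90, 3.80 and 3.58 in the monocyte arrays (difference -3.56 ± 0.20, adjusted p = 2.53e-05). Npc1, which exports cholesterol from lysosomes, had values of -2.09 and -1.72 in the brain DC arrays, against 0.85, 0.97 and 0.88 in the monocyte arrays (difference -2.80 ± 0.15, adjusted p = 1.97e-05). Both genes were far apart between groups, with monocyte arrays close to each other. Abca7, a lipid transporter, differed by -1.61 (adjusted p = 9.23e-05). The gene called higher was Ch25h, the cholesterol 25-hydroxylase, at 1.02 (adjusted p = 0.005).

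Genes of fatty acid synthesis differed in both directions. Of its 10 genes 4 were higher in brain DC (Fads1, Fads2, Fasn and Scd1), 3 were lower (Elovl6, Scd2 and Acly) and 3 did not pass the test. The called share was 70.0%, against 33.8% of all genes, and the median difference was 0.11. Elovl6, the elongase that extends palmitate, had values of 0.24 and -0.17 in the brain DC arrays, against 1.74, 1.64 and 1.93 in the monocyte arrays. The groups were far apart, at -1.74 ± 0.17 (3.33-fold, adjusted p = 0.000285), and all 3 probe sets ran the same way, from -2.04 to -1.35. Fads1, the desaturase that completes arachidonate, had values of 0.23 and 0.31 in the brain DC arrays, against -1.09, -0.73 and -1.0 in the monocyte arrays. Its difference was 1.21 ± 0.15 (2.31-fold, adjusted p = 0.000786). Fads2, which makes the earlier desaturation of the same polyunsaturated chain, had values of 0.58 and 0.53 in the brain DC arrays, against -0.29, -0.56 and -0.50 in the monocyte arrays. It differed by 1.00 ± 0.13 (2.0-fold, adjusted p = 0.00125), and as with Fads1 the arrays of a group lay close together.

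The stearoyl-CoA desaturases, which make monounsaturated fatty acids, differed in opposite directions. Scd1 had values of 0.30 and 0.17 in the brain DC arrays, against -0.55, -0.58 and -0.65 in the monocyte arrays (difference 0.83, adjusted p = 0.00183). Scd2 had values of -0.98 and -0.68 in the brain DC arrays, against -0.36, -0.21 and -0.11 in the monocyte arrays (difference -0.60, adjusted p = 0.0176). Fasn, the synthase that builds palmitate, was higher by 0.95 (adjusted p = 0.00652), while Acly, which supplies its acetyl-CoA from citrate, differed by -0.54 (adjusted p = 0.0241). The Acly call failed without the first brain DC array (adjusted p = 0.121) or the first or second monocyte array (0.0682 and 0.0696). The Scd2 call failed without the first brain DC array (0.0944), without the third monocyte array (0.0579), and with the median of its probe sets (0.0669). Acaca, the acetyl-CoA carboxylase between them, had probe sets at 0.61 and -0.63 that cancelled to -0.01. The elongases Elovl1 (-0.19) and Elovl5 (0.23) were not called. Of 13 further genes of fatty acid synthesis 3 were higher, 1 was lower and 9 did not pass, with a median difference of 0.13. Their called share was 30.8%, against 33.8% of all genes. The called genes with the largest differences were Hsd17b12, the ketoreductase of chain elongation, at 0.78 (adjusted p = 0.00248), the mitochondrial synthase Oxsm at -0.77 (adjusted p = 0.00873) and the citrate carrier Slc25a1 at 0.76 (adjusted p = 0.0186; 0.0716 without the second brain DC array and 0.0598 without the first monocyte array). The 5 probe sets of Oxsm ran from -2.07 to 0.08, and with their median in place of their mean its difference was -0.42 (adjusted p = 0.109).

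Acyl-CoA synthetases join fatty acids to CoA and commit them to further use. Acsl4, which prefers arachidonate, was higher in brain DC, with values of 0.61 and 0.56 in the brain DC arrays, against -0.19, 0.04 and -0.32 in the monocyte arrays. The difference was 0.74 ± 0.14 (1.67-fold, adjusted p = 0.00658). Acsl3, the form found on the endoplasmic reticulum and on lipid droplets, was lower, with values of -0.10 and -0.29 in the brain DC arrays, against 0.63, 0.89 and 0.25 in the monocyte arrays. Its difference of -0.78 ± 0.20 (1.72-fold, adjusted p = 0.0198) was -0.43 (adjusted p = 0.0986) when probe sets that may cross-hybridise, by their suffix, were left out. It was also not called without the second brain DC array (adjusted p = 0.0929) or the first monocyte array (0.0585). Acsl5 was at 0.16 and not called, and its groups overlapped.

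In mitochondrial oxidation the 2 carnitine palmitoyltransferases were lower in brain DC and the enzymes of the oxidation cycle mostly did not pass the test. Of 7 genes 1 was higher (14.3%), 2 were lower (28.6%) and 4 were not called, against 16.9% higher and 16.9% lower over all genes. Their median difference was 0.05. Cpt2, which releases fatty acids from carnitine inside the mitochondrion, had values of -0.91 and -0.77 in the brain DC arrays, against 0.69, 0.76 and 0.74 in the monocyte arrays. The arrays of each group were nearly level with each other, and the difference was -1.57 ± 0.12 (2.97-fold, adjusted p = 0.000105). Cpt1a, which attaches fatty acids to carnitine and is the controlled entry step, had values of 0.08 and 0.82 in the brain DC arrays, against 1.49, 1.63 and 1.52 in the monocyte arrays. The brain DC arrays were spread more widely than the monocyte arrays but stayed below them, for a difference of -1.10 ± 0.21 (2.14-fold, adjusted p = 0.00644). The acyl-CoA dehydrogenase Acadl was higher by 0.70 (adjusted p = 0.0147), a call lost without the second brain DC array (adjusted p = 0.0758) or the first monocyte array (0.0515). Its relatives Acadm (0.05) and Acadvl (0.03) had overlapping groups. Hadha and Hadhb, the subunits of the trifunctional protein whose promoter windows overlap, differed by 0.30 and 0.44, with adjusted p of 0.12 and 0.105; Hadhb passed with the median of its probe sets (adjusted p = 0.0419).

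The oxidation genes outside the 52 held calls in both directions. Of 23 listed 21 had a value, and 5 were higher, 4 lower and 12 not called, with a median difference of 0.13. The shares were 23.8% higher and 19.0% lower, against 16.9% and 16.9% of all genes. Slc25a20, the carrier that moves acylcarnitine across the inner membrane between the reactions of Cpt1a and Cpt2, was higher, against the direction of both. It had values of 2.22 and 2.30 in the brain DC arrays, against 0.36, 0.18 and 0.17 in the monocyte arrays (difference 2.02 ± 0.13, adjusted p = 4.44e-05). Its 2 probe sets differed by 1.93 and 2.11. The coactivator Ppargc1b, which promotes mitochondrial gene expression, differed by -1.48 (adjusted p = 0.000155), and the branched-chain acyl-CoA dehydrogenase Acadsb by -1.32 (adjusted p = 0.0042). The only probe set of Acadsb may cross-hybridise, by its suffix.

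The genes of uptake, binding, storage and lipolysis held the largest differences of the 50. Of 8, 4 were higher in brain DC (Fabp4, Dgat2, Plin2 and Lipe), 2 were lower (Lpl and Fabp5) and 2 did not pass. The called share was 75.0%, against 33.8% of all genes, and the median difference was 0.44. Fabp4, a cytosolic fatty acid binding protein of fat cells and macrophages, had values of 3.36 and 3.11 in the brain DC arrays, against 0.04, -0.04 and 0.07 in the monocyte arrays. The monocyte arrays were level with the baseline, and the difference was 3.22 ± 0.13 (9.29-fold, adjusted p = 6.1e-06). Fabp5, its relative of skin and immune cells, went the opposite way, with values of -1.03 and -1.09 in the brain DC arrays, against 1.13, 1.67 and 1.30 in the monocyte arrays. Its difference was -2.43 ± 0.18 (5.39-fold, adjusted p = 7.94e-05). Lpl, the lipase that frees fatty acids from lipoproteins, had values of 0.72 and 1.18 in the brain DC arrays, against 3.35, 3.76 and 4.56 in the monocyte arrays. The monocyte arrays spread over more than a log2 unit and all lay above the brain DC arrays, for a difference of -2.94 ± 0.33 (7.68-fold, adjusted p = 0.000585).

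Dgat2, which makes the final step of triglyceride synthesis, had values of 0.85 and 1.47 in the brain DC arrays, against 0.14, -0.15 and -0.01 in the monocyte arrays, a difference of 1.16 ± 0.20 (2.24-fold, adjusted p = 0.00363). Dgat1, the unrelated enzyme of the same step, was not called at -0.44, and its groups overlapped; it passed without the first brain DC array (adjusted p = 0.0437). Plin2, a coat protein of lipid droplets, had values of 1.71 and 2.03 in the brain DC arrays, against 1.26, 1.22 and 0.44 in the monocyte arrays (difference 0.90, adjusted p = 0.0324). The third monocyte array was the low one. Lipe, the hormone-sensitive lipase, was higher by 0.64 (adjusted p = 0.0304), and Pnpla2, the lipase that starts triglyceride breakdown, was not called at 0.24. Plin2 was not called without the first or second brain DC array (adjusted p = 0.0621 and 0.15). Lipe was not called without the second brain DC array (0.155) or the first or second monocyte array (0.0807 and 0.0842).

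**Figure D2:**
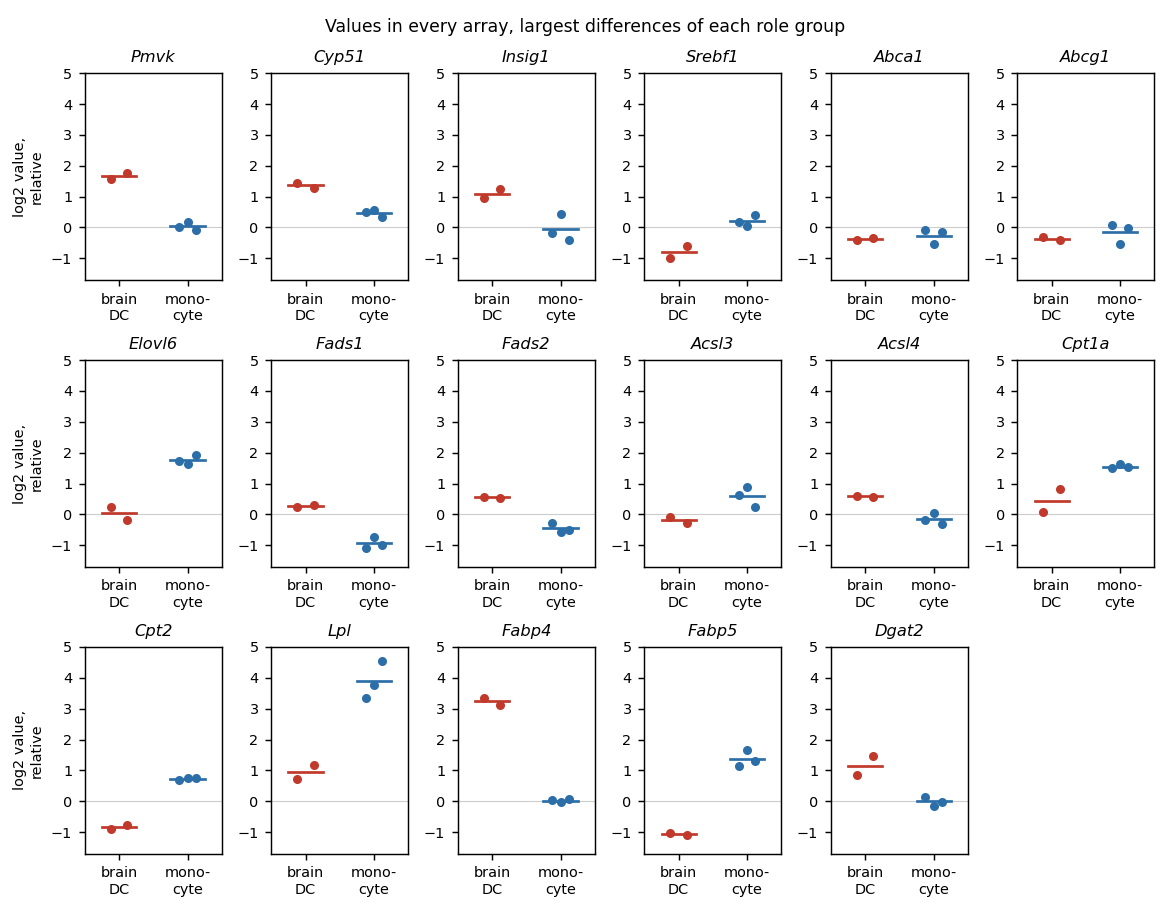
Values in every array of the 17 genes with the largest differences of their role groups, with lines at group means, on the log2 scale relative to each probe set's baseline, with the 2 brain DC arrays left of the 3 monocyte arrays in each panel. The groups are widest apart for Fabp4, Lpl and Fabp5 and overlap for Abca1 and Abcg1.

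Of 20 further genes of lipid storage and transport 19 had a value, and 5 were higher, 4 lower and 10 not called, with a median difference of 0.03. The shares were 26.3% higher and 21.1% lower, against 16.9% and 16.9% of all genes. Cd36, the scavenger receptor that takes up fatty acids and oxidised lipoproteins, had values of 5.87 and 5.49 in the brain DC arrays, against 0.25, 0.22 and 0.61 in the monocyte arrays. This difference of 5.31 ± 0.18 (adjusted p = 2.92e-06) exceeded that of any of the 50 genes, and its 3 probe sets ran from 4.23 to 5.90. Hilpda, a lipid droplet protein that inhibits the lipase Pnpla2, had values of 1.75 and 1.80 in the brain DC arrays, against -0.35, -0.96 and -0.65 in the monocyte arrays (difference 2.43 ± 0.19, adjusted p = 9.77e-05). Acot1, a thioesterase that releases fatty acids from CoA, differed by -2.20 ± 0.24 (adjusted p = 0.000467). Over all 73 measured pathway genes outside the 52, 14 were higher and 17 lower, or 19.2% and 23.3%, against 16.9% and 16.9% of all genes.

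**Figure D3:**
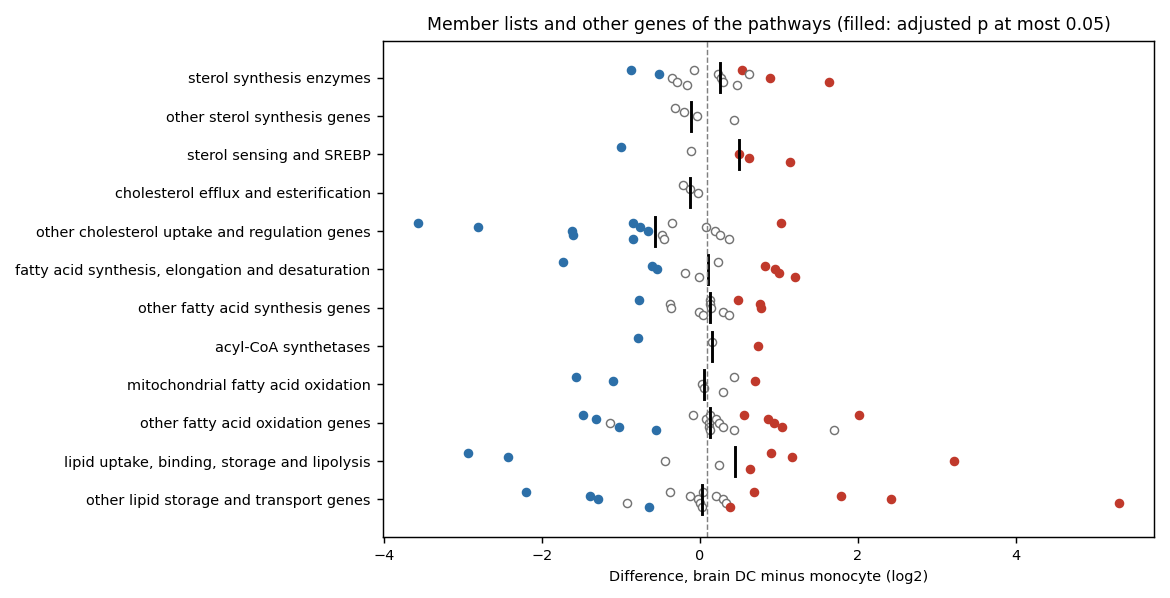
Differences, brain DC minus monocyte, on the log2 scale for each role group and each list of further pathway genes, with 1 point per gene, a black bar at the list's median and a dashed line at the median of all genes (0.09). Most lists spread to both sides of 0; the further genes of cholesterol uptake and regulation have the lowest median (-0.57).

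Probe sets of a gene did not always give the same size. The 4 probe sets of Fabp4 ran from 0.87 to 5.55, the 2 of Lpl were at -4.03 and -1.85, those of Fabp5 at -3.0 and -1.85, those of Cpt2 at -2.25 and -0.90, and those of Fads1 at 0.50 and 1.92. In these genes every probe set had the sign of the mean. The 3 probe sets of Cyp51 ran from 0.23 to 1.45, those of Acsl4 from 0.15 to 1.20 and the 5 of Hmgcs1 from 0.06 to 0.95. Scap and Acaca were the members whose probe sets lay on both sides of 0 by at least 0.5. The 5′ control probe sets differed far more between the groups than the 3′ ones, by 3.02 against -0.41 for Actb and by 2.80 against -0.12 for Gapdh. Where the members' probe sets lie along their transcripts was not used here, and whether position bears on these splits was not tested.

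**Figure D4:**
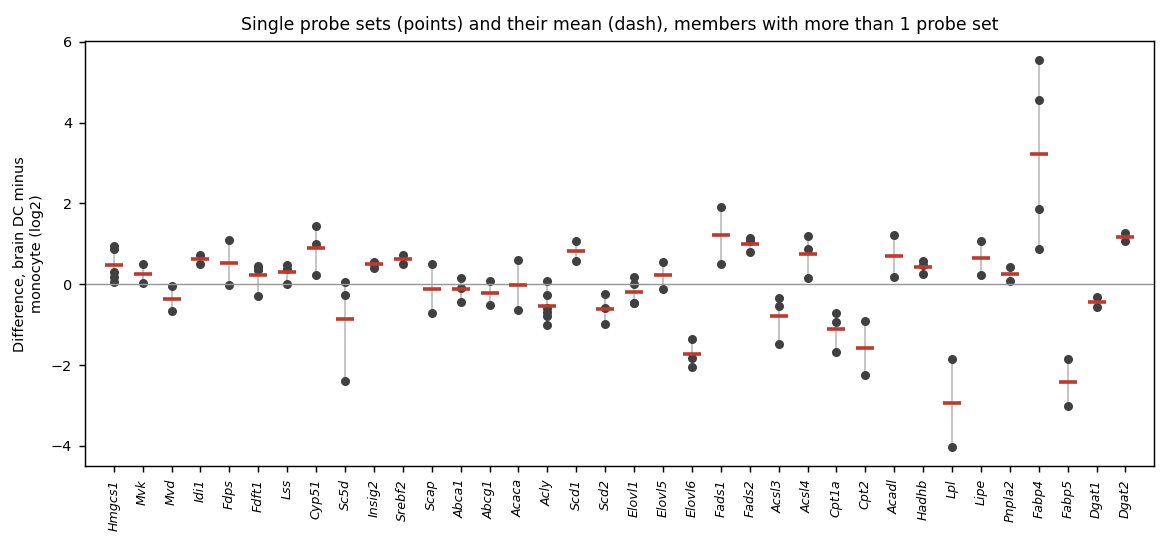
Difference, brain DC minus monocyte, of each single probe set on the log2 scale, for genes with more than 1 probe set, with a red dash at the gene's mean. The probe sets of Fabp4 span 0.87 to 5.55, and those of Scap and Acaca lie on both sides of 0.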

How the data were processed

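The deposited values are log2 values made by the authors with RMA, per the submitters' processing notes; the log base is inferred from their range. For the RMA version, the centring and the array set normalised together, nothing is stated (not given in the sources used here). In 972 probe sets 2 arrays held equal and opposite values (tolerance 1e-06), so a baseline over more arrays is likely, and detection above background cannot be read. Of 45101 probe sets, 34945 had 1 symbol, 932 several, 9160 none and 64 were controls; 34741 matched a GRCm38.p6 gene table by Entrez identifier and 0 symbols were updated.

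The probe sets of a gene were averaged. All 18193 genes were fitted with limma 3.58.1 in R 4.3.3 (lmFit and eBayes, no covariate, Benjamini-Hochberg over all genes, threshold 0.05; residual degrees of freedom 3, prior 4.43). The fit was tested on simulated data. Members and lists were chosen with earlier results of these data known. Values were given array by array for called genes differing by at least 1 within a role group, or for the 2 with the largest differences, and for further pathway lists the 3 called genes with the largest differences were named; Ch25h and Ggps1, and members described beyond that rule with values per array (Hmgcs1, Sqle, Srebf2, Apoe, Scd1, Scd2 and Plin2), were chosen after their values were seen. Alternatives changed the summary of probe sets, the scaling, the variance model, the replicate block and the arrays included. A filter on dim probe sets needs levels and was not run.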

Additional observations from a re-analysis of the deposited data

How the results depend on the processing

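Of the 27 called genes, 16 were called in every fit that left out 1 array and under every other alternative that gave them a value, and 0 changed direction. The number called higher was 15 to 17, against 16, under the median of probe sets, unsuffixed probe sets, quantile normalisation, array median centring, the robust variance model and the replicate block, and 10 to 16 with 1 array left out. The number called lower was 9 to 11, against 11, under those alternatives and 9 to 11 with 1 array left out. The lowest count of higher genes came without the second brain DC array; the fit then has a lone brain DC array, assumed to vary like the monocyte arrays. With unsuffixed probe sets 46 of 50 genes had a value. Replicate numbers were shared by 2 pairs, whose deviations correlated at 0.04 and 0.09, so no pairing was taken from them. The third monocyte array has no brain DC array of its number, so the blocked fit takes no difference from it. Blocked differences are therefore those without that array, as for Hmgcs1 (0.48 in both) and Mvk (0.22 in both). The blocked fit also has fewer residual degrees of freedom than the main fit. With the replicate block 16 genes were higher and 10 lower, since Insig2 (0.42, adjusted p = 0.0898) and Nsdhl (-0.44, adjusted p = 0.0817) were not called and Hadhb was (0.57, adjusted p = 0.0376). Signs turned only among genes not called: Apoe under quantile normalisation (0.0852) and the replicate block (0.0140), Acaca under the block (0.0492), Acadm under centring (-0.0134), and Acadvl under centring (-0.0385) and the block (-0.0802). With 1 array left out the differences ran from -0.73 to 0.0200 for Mvd, -0.40 to 0.0712 for Sqle, -0.41 to 0.26 for Ebp, -0.28 to 0.19 for Apoe, -0.1067 to 0.0850 for Acaca, -0.42 to 0.0463 for Elovl1, -0.1092 to 0.21 for Acadm and -0.34 to 0.39 for Acadvl; the causes were not tested. The number of arrays limits all of these, and calls near the threshold depend on single arrays.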

Other observations

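Several of the genes have close relatives beside them on the chromosome, and these were looked up after the members' values were seen. In the GRCm38.p6 gene table Fabp5, Pmp2, Fabp9, Fabp4 and Fabp12 follow each other on chromosome 3. Of these, Fabp5 and Fabp4 differed by -2.43 and 3.22, while Pmp2 (0.14, adjusted p = 0.428), Fabp9 (-0.11, adjusted p = 0.566) and Fabp12 (0.20, adjusted p = 0.356) did not pass limma's test. Opposite differences of this size thus lie within a run of 5 protein-coding genes. On chromosome 19 the stearoyl-CoA desaturases Scd3 and Scd1 were higher in brain DC, by 0.62 (adjusted p = 0.0102) and 0.83, and Scd2, which lies between them, differed by -0.60. The difference of Scd3 was not called without the first brain DC array (adjusted p = 0.0528). Also on chromosome 19, the desaturase genes Fads3, Fads2 and Fads1 follow each other and were all higher, by 0.60 (adjusted p = 0.0123), 1.00 and 1.21, the first of them not without the second brain DC array (adjusted p = 0.0613). Scd4 was not analysed here.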
